A study of Mus musculus with 16 samples.

Results

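The proteasome subunit genes were taken by name from libraries labelled as epididymal white fat of obese male C57BL/6 mice. They were the protein-coding genes whose symbol begins with Psma, Psmb, Psmc, Psmd, Psme or Psmg and a digit, without the immunoproteasome genes Psmb8, Psmb9 and Psmb10, with a mean of at least 1 FPKM (fragments scaled by gene length and library depth) over the 16 libraries. Of 49 protein-coding name matches, 3 were the immunoproteasome genes, 2 lay under the limit and 44 remained, out of 13271 genes tested and 54532 gene IDs in the table. The 44 held 14 genes of the core particle, 17 of the regulatory particle, 3 chaperones of the regulatory particle, 5 activators and 4 chaperones of the core particle. The last match, Psmc3ip, encodes a meiotic recombination factor and no subunit. It met the letter of the naming rule at 1.33 FPKM and stood just inside the limit with Psmg3 at 1.79, while Psma8 at 0.78 and Psmb11 at 0.00 stood just outside it.

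All mice were labelled as fed a high-fat diet for 20 weeks. The first cohort compared 4 tubastatin A libraries with 4 vehicle libraries, tubastatin A being a blocker of the deacetylase HDAC6. These 8 mice were labelled as 25 weeks old and as global HDAC6 knockouts, while the design line names no knockout and gives about 28 weeks, and the conflict was not resolved. That line also lists the inguinal depot beside the epididymal one, although all 16 libraries carry the epididymal label, and which of them it refers to was not resolved either. The second cohort had 4 libraries labelled AdKO, with HDAC6 deleted in adipose tissue, and 4 labelled AdCre, controls that carry the adiponectin-Cre transgene. These mice were 28 weeks old, and their treatment is labelled vehicle. Adiponectin-Cre is driven by a promoter active in adipocytes, so the other cells of the pad keep the gene. Whether every library came from its own animal is not in the labels, and the p-values therefore cover the variation among libraries.

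The proteasome is the main protease of the cytosol and nucleus. Its core particle is a barrel of outer α rings, which gate the entry, and inner β rings, which hold the proteolytic sites. The regulatory particle caps the barrel: its ring of ATPases unfolds ubiquitin-tagged proteins and its non-ATPase subunits bind, deubiquitinate and position them. Interferon exchanges the catalytic β subunits for the products of Psmb8, Psmb9 and Psmb10, and the activator PA28, encoded by Psme1 and Psme2, opens the gate without ubiquitin. When proteasome activity is short, the membrane-bound factor NFE2L1 is cut free and raises transcription of the subunit genes as a group, and proteasomes in brown fat of cold-exposed mice depend on it. HDAC6 itself binds ubiquitin chains and carries misfolded proteins along microtubules to aggresomes.

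Depth recovered from the FPKM steps was 18234385 to 24776803 reads per library, and single members of the core and regulatory particles had 1094 to 6528 reads in a library. FPKM values summed to 318205 to 323119 in tubastatin libraries, below the 326319 to 351723 in vehicle libraries, so scaling touches the drug comparison. Hdac6 had 1.70, 1.53, 1.44 and 1.59 FPKM in tubastatin libraries and 1.78, 1.41, 1.66 and 1.48 in vehicle libraries and the groups overlapped. It had 4.11, 2.66, 3.44 and 3.52 FPKM in AdKO libraries and 4.15, 4.15, 4.74 and 3.64 in AdCre libraries (two-sided exact permutation p = 0.0571, where 0.0286 is the smallest possible), and these groups overlapped too. The highest Hdac6 value of the first cohort, 1.78 FPKM, lay below the lowest of the second, 2.66 FPKM. Cohort, age and labelled genotype differ together here, so this difference does not resolve the conflict over the labelled global knockout. All 13 adipocyte markers were detected, summing to 4636 to 9525 FPKM in a library. Of 8 epididymal epithelium markers, Spint3 was at 0 throughout, while Gpx5 reached 5.97 FPKM in AdCre replicate 2 and Epcam 22.8 FPKM in AdCre replicate 3, so results on AdCre were also computed without these libraries.

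Most subunit genes were expressed above the level of the typical gene. Of the 44, 40 lay at or above the median of all tested genes, which was 6.71 FPKM. The core particle genes averaged 20.5 to 78.9 FPKM over the 16 libraries with a median of 42.7, and the regulatory particle genes 13.2 to 62.6 FPKM with a median of 26.6. In the α ring Psma6 was highest at 78.9 FPKM and Psma2 lowest at 23.0. In the β ring Psmb5, which carries the chymotrypsin-like site, was highest at 76.8 FPKM, and Psmb7, which carries the trypsin-like site, lowest at 20.5. Among the ATPases Psmc5 was highest at 62.6 FPKM and Psmc2 lowest at 19.0. Among the non-ATPases the scaffold gene Psmd2 was highest at 60.9 FPKM and Psmd11, whose product helps join core and cap, lowest at 13.2. The activators ranged over 7.33 to 58.9 FPKM, the chaperones of the regulatory particle over 3.22 to 13.9 and those of the core over 1.79 to 19.4. Of the 44, 12 overlap another coding gene, among them Psma2, Psmb7, Psmd1, Psmd5, Psmd13 and Psme1, and their values may hold reads of the neighbour. Psme2b shares 68.7% of its 50-base words with Psme2, and its values are uncertain for that reason.

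**Figure D1:**
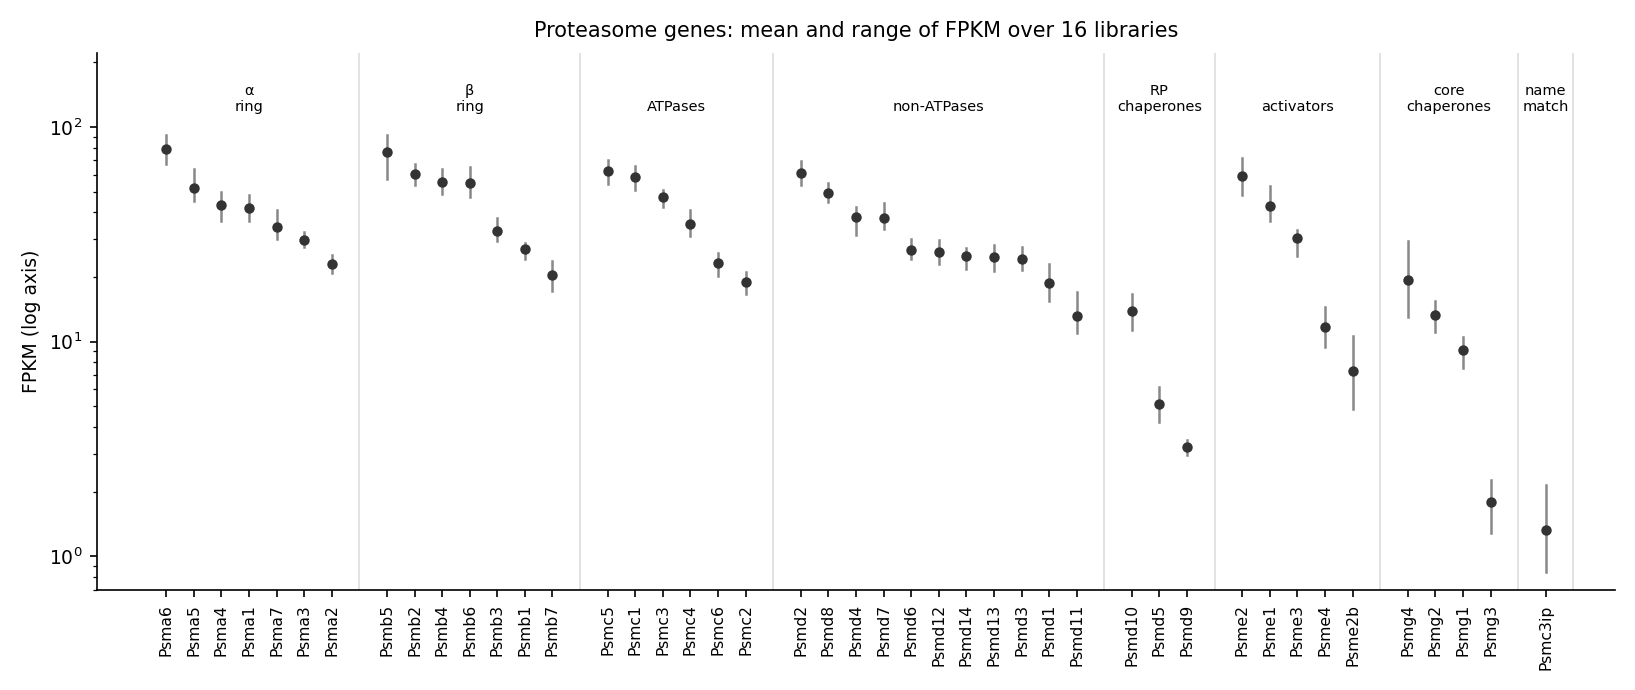
Mean FPKM of each of the 44 genes over 16 libraries (points, log axis) with the range over libraries (bars), grouped by role and ordered by mean within a role. The core particle genes lie between 20.5 and 78.9 FPKM and the regulatory particle genes between 13.2 and 62.6 FPKM, while most chaperone genes lie lower.

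The 44 genes lie on 16 chromosomes, 10 of them on chromosome 11, so what they share is not a common locus. RefSeq promoter windows (GRCm38.p6, 250 bases before to 50 after the gene start) were matched for 37 of the 44. The letters TGACNNNGC, part of the element bound by NFE2L1 and NFE2L2 with small MAF proteins, occurred on either strand in 6 of the 37 windows (16.2%), against 12.5% of all windows and 15.1% of those of tested genes. The letters CCAAT, bound by NF-Y, occurred in 35.1%, against 37.9% of all and 38.3% of tested windows. The letters GGGCGG, bound by Sp1, occurred in 59.5%, against 35.9% of all and 64.4% of tested windows. The shares in the subunit genes were thus close to those of tested genes, and a match is no measured site. The 100 bases shown run along the gene's strand, with the match in capitals (as its reverse complement where it lies on the other strand). The first 4 hold TGACNNNGC and belong to the catalytic genes Psmb5 and Psmb6, the ATPase gene Psmc6 and the lid gene Psmd12. For Psmb6, unlike the others shown, the bases after the gene start matched no transcript, so the place of its start is less certain. The last 2 hold GGGCGG and belong to Psmd11 and the ATPase gene Psmc4, which had the smallest p in the drug comparison and in the difference between the effects.
Psmb5 (chr14:54617996-54618095, minus strand): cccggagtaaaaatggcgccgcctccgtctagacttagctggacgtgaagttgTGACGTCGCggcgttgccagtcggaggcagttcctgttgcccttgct
Psmb6 (chr11:70525257-70525356, plus strand): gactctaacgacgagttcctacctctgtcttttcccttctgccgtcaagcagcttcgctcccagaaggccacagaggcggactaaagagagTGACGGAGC
Psmc6 (chr14:45329574-45329673, plus strand): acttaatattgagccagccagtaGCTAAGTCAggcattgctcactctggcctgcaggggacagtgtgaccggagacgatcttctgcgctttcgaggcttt
Psmd12 (chr11:107479278-107479377, plus strand): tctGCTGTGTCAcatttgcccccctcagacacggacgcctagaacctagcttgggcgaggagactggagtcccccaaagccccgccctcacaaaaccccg
Psmd11 (chr11:80428515-80428614, plus strand): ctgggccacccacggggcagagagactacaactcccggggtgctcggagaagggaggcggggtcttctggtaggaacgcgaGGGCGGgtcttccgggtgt
Psmc4 (chr7:28050093-28050192, minus strand): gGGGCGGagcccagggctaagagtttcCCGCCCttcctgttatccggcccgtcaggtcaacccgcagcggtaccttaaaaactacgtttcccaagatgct

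In fat of mice given tubastatin, the subunit genes of both particles lay somewhat above vehicle, but no single gene passed the adjusted threshold. By limma with Benjamini-Hochberg adjustment at 0.05, 0 of the 44 were called, as were 0 of the 13271 tested genes (0%). At an unadjusted p under 0.05, 22 of the 44 were higher, against 5.94% of all tested genes, and 1 was lower, against 6.1%. The lower one was Psmc3ip, which encodes no subunit. The log2 fold change on the log2(FPKM + 1) scale was above 0 for 35 of the 44, against 45.4% of tested genes. It was above 0 for 13 of 14 core genes, with a median of 0.14, and for 17 of 17 regulatory particle genes, with a median of 0.17, while the median of all tested genes was -0.01. Rescaled to TPM, the medians were 0.22, 0.25 and 0.06. In 18 of the 44 every tubastatin library lay above every vehicle library, against 3.53% of tested genes, and in 1 every tubastatin library lay lower, against 3.62%. That gene was again Psmc3ip. The differences were small: the tubastatin mean differed from the vehicle mean by a median of 10.6% in the core genes and 13.1% in the regulatory particle genes.

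Psmd11 differed most among the subunits. It had 15.6, 16.98, 16.5 and 16.4 FPKM in tubastatin libraries, against 11.0, 13.1, 12.4 and 12.5 FPKM in vehicle libraries. The groups did not overlap, and the mean was 34.0% above vehicle (log2 fold change 0.40 ± 0.06 SE, limma adjusted p = 0.153). With 1 spread shared by all 16 libraries its adjusted p was 0.0324, the only member then called.

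The other regulatory particle genes had smaller differences. The scaffold gene Psmd1, which overlaps another coding gene, had 20.9, 20.3, 23.1 and 21.9 FPKM in tubastatin libraries, against 16.8, 18.4, 16.9 and 18.3 in vehicle libraries (log2 fold change 0.28 ± 0.06 SE, limma adjusted p = 0.246). The lid gene Psmd3 had 26.9, 27.7, 26.8 and 26.9 FPKM in tubastatin libraries, against 21.8, 24.4, 23.2 and 21.5 in vehicle libraries (log2 fold change 0.24 ± 0.05 SE, limma adjusted p = 0.266). The ATPase gene Psmc4 had 37.5, 38.8, 36.4 and 39.1 FPKM in tubastatin libraries, against 30.9, 33.2, 35.1 and 31.9 in vehicle libraries. In these genes the lowest tubastatin library stood above the highest vehicle library. The lid gene Psmd7 and the ATPase genes Psmc2 and Psmc6 likewise did not overlap, with log2 fold changes of 0.21, 0.17 and 0.19. The scaffold gene Psmd2 (0.20), the deubiquitinase gene Psmd14 (0.14), the ubiquitin receptor gene Psmd4 (0.18) and the ATPase gene Psmc1 (0.10) lay on the same side of 0, and Psmd8 was lowest at 0.05.

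In the core particle Psmb2, a β subunit without a proteolytic site of its own, had the smallest p. It had 61.9, 63.2, 63.4 and 65.7 FPKM in tubastatin libraries, against 54.8, 54.0, 54.9 and 53.6 in vehicle libraries (log2 fold change 0.22 ± 0.04 SE, limma adjusted p = 0.233). The α ring genes Psma7 and Psma5 had log2 fold changes of 0.24 and 0.22, also without overlap of the groups. Psma5 averaged 59.5 ± 3.58 FPKM in tubastatin libraries and 51.0 ± 1.52 in vehicle libraries (SD, n = 4 each). The catalytic genes were less clearly separated: Psmb5 averaged 79.9 ± 7.58 FPKM in tubastatin libraries and 72.5 ± 10.6 in vehicle libraries, Psmb6, of the caspase-like site, 54.7 ± 4.83 and 56.8 ± 5.80, and Psmb7 19.9 ± 1.95 and 18.8 ± 2.58 (SD, n = 4 each). The groups overlapped in all 3 catalytic genes, and so they did in Psma6, with 75.2 ± 2.82 FPKM in tubastatin libraries and 75.0 ± 5.22 in vehicle libraries (SD, n = 4 each).

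The chaperone and activator genes had smaller or opposite median differences than the particles, and this contrast with the particles was not tested. The chaperones of the regulatory particle had a median log2 fold change of 0.02 and those of the core of -0.01, with Psmg1 at 0.11, Psmg2 at -0.03, Psmg3 at 0.02 and Psmg4 at -0.13. Of the activators, the PA28 genes Psme1 and Psme2 had log2 fold changes of -0.16 and -0.21, Psme3, which encodes the nuclear PA28 subunit, -0.01, and Psme4, which encodes the PA200 cap, 0.12. Of the chaperones and activators, Psme4 was the 1 gene at an unadjusted p under 0.05 under tubastatin. The immunoproteasome genes lay below vehicle as well, with log2 fold changes of -0.16 for Psmb8, -0.28 for Psmb9 and -0.35 for Psmb10. Psmb10 had 31.0, 28.8, 34.4 and 30.5 FPKM in tubastatin libraries, against 39.4, 38.4, 46.6 and 36.5 in vehicle libraries, with no overlap (limma adjusted p = 0.275). T and NK cell markers moved the same way as these genes: all 8 tested had a log2 fold change below 0, and they summed to 15.7 to 41.9 FPKM over all 11 in tubastatin libraries and 31.4 to 70.1 in vehicle libraries, highest in vehicle replicate 3, which also had the highest Psmb8, Psmb9, Psmb10, Psme1 and Psme2 of that cohort. Among tubastatin libraries the lists did not rank alike. Replicate 3 had the highest summed Psmb8, Psmb9 and Psmb10 of that group (73.3 FPKM). Its sum of the 8 tested T and NK cell markers was the lowest of that group (14.4 FPKM). Of the 18 tested interferon response genes, 13 had a log2 fold change above 0 under tubastatin (median 0.17) and 5 below 0. The 18 summed to 289.1 FPKM in vehicle replicate 3 and 336.6 FPKM in tubastatin replicate 3, each the highest of its group. None of them was called. The part of these cells and genes in the result was not tested. Psmc3ip, the match that is no subunit, had 0.85 to 1.13 FPKM in tubastatin libraries and 1.16 to 1.88 in vehicle libraries.

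**Figure D2:**
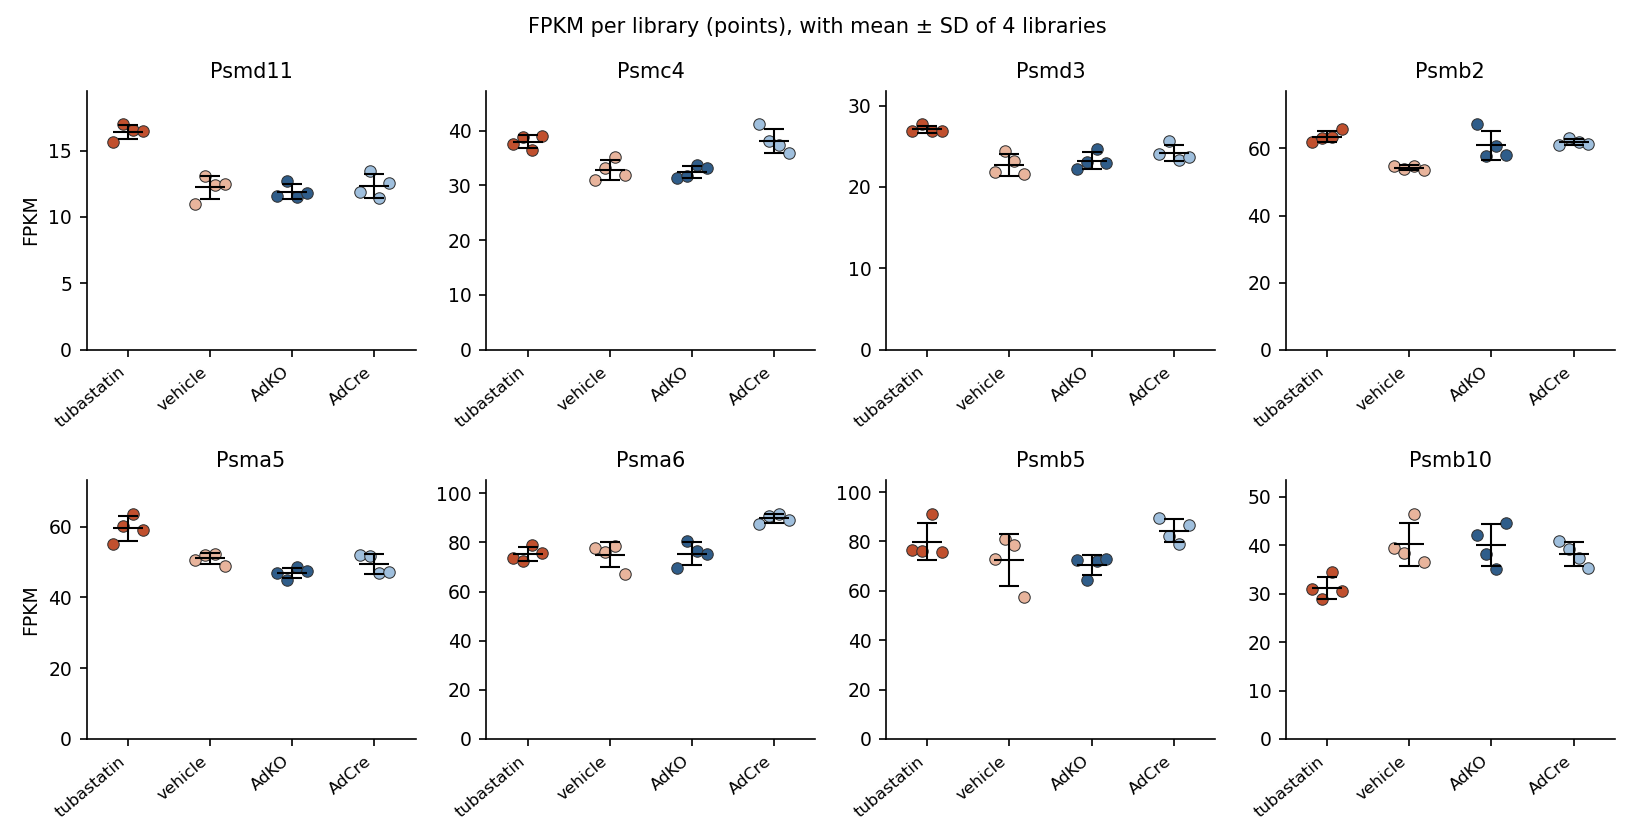
FPKM of 7 subunit genes and of the immunoproteasome gene Psmb10 in every library (points) with the mean and SD of 4 libraries (bars), each panel on its own axis from 0. Tubastatin libraries lie above vehicle libraries in Psmd11, Psmc4, Psmd3, Psmb2 and Psma5, and AdKO libraries lie below AdCre libraries in Psmc4, Psma6 and Psmb5.

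In the knockout cohort the subunit genes of both particles mostly lay below their controls, by small amounts. No gene was called by limma, 0 of the 44 and 0 of 13271 (0%). At an unadjusted p under 0.05, 8 of the 44 were lower in AdKO libraries, against 6.16% of tested genes, and 0 were higher, against 4.78%. The log2 fold change was below 0 for 38 of the 44, against 49.1% of tested genes, with medians of -0.08 in the core and -0.10 in the regulatory particle, where all 17 genes were below 0. The AdKO mean differed from the AdCre mean by a median of -5.13% in the core genes and -6.76% in the regulatory particle genes. The groups did not overlap, AdKO being lower, in 11 of the 44, against 3.7% of tested genes: Psma2, Psma6 and Psmb5 of the core, Psmc2, Psmc4, Psmd6, Psmd8, Psmd12 and Psmd14 of the regulatory particle, and the chaperones Psmd5 and Psmd9. None was higher without overlap, against 2.78%. The core median was -0.049 without AdCre replicate 1. The count of 8 moved with the AdCre libraries: it was 4 without AdCre replicate 3, 5 without AdCre replicate 4 and 2 without replicates 2 and 3 together. It was also 5 as TPM or after quantile normalization, which put the regulatory particle median at -0.060, and 14 with 1 spread shared by all 16 libraries. Over all tested genes 43 were called with that shared spread, against 0 in the main fit.

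Psma6, an α ring gene, was the member with the smallest p. It had 69.5, 80.5, 76.5 and 75.5 FPKM in AdKO libraries, against 87.7, 90.8, 91.8 and 89.2 in AdCre libraries (log2 fold change -0.25 ± 0.07 SE, limma adjusted p = 0.322). Psmb5 had 72.7, 64.4, 72.1 and 72.7 FPKM in AdKO libraries, against 89.7, 82.3, 78.8 and 86.8 in AdCre libraries (log2 fold change -0.26 ± 0.08 SE, limma adjusted p = 0.336). Psmc4 had 31.4, 31.6, 33.6 and 33.1 FPKM in AdKO libraries, against 41.1, 38.1, 37.4 and 35.9 in AdCre libraries (log2 fold change -0.23 ± 0.07 SE, limma adjusted p = 0.327). Every AdKO library was below every AdCre library in all 3 genes, and the means differed by -16.0%, -16.5% and -14.97% of the AdCre mean for Psma6, Psmb5 and Psmc4.

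Other genes with small p were the lid genes Psmd12 (-0.15), Psmd14 (-0.18) and Psmd6 (-0.14), the ATPase gene Psmc2 (-0.14), the chaperone Psmd5 (-0.23), which binds ATPases before assembly, and the activators Psme3 (-0.17) and Psme4 (-0.29), all as log2 fold changes of AdKO over AdCre. Psme4 had 9.64, 11.4, 13.5 and 9.45 FPKM in AdKO libraries, against 11.4, 14.1, 14.4 and 14.5 in AdCre libraries, and the groups overlapped. Psmd11, the gene that differed most under tubastatin, averaged 11.9 ± 0.54 FPKM in AdKO libraries and 12.4 ± 0.89 in AdCre libraries (SD, n = 4 each). The scaffold genes Psmd1 and Psmd2 had log2 fold changes of -0.09 and -0.07, Psmd4 -0.07, Psmc1 -0.10, Psmb6 -0.11 and Psmb7 -0.08. The immunoproteasome genes were on the opposite side, with 0.30 for Psmb8, 0.31 for Psmb9 and 0.06 for Psmb10, as was Psme1 at 0.13, while Psme2 was at -0.04. The core chaperones ranged from -0.16 for Psmg4 to 0.07 for Psmg3, with Psmg1 at -0.04 and Psmg2 at -0.12.

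The drug effect was estimated above the knockout effect in 39 of the 44 genes, against 6561 of 13271 tested genes. The effects come from separate cohorts, which also differ in labelled age and genotype, and these cannot be told apart from drug against knockout. No member was called for the difference of the effects (limma, all 16 libraries, 0% of 13271 called), and the smallest adjusted p was 0.0917, for Psmc4, with a difference in log2 fold change of 0.43 ± 0.08 SE. Psmd11 followed with 0.44 ± 0.09 SE (limma adjusted p = 0.112), then Psmd12 (0.32), Psmc2 (0.31), Psmd6 (0.30), Psmd7 (0.31), Psmd3 (0.30), Psmd14 (0.32), Psmd1 (0.36) and Psma5 (0.29). At an unadjusted p under 0.05 the difference was above 0 in 28 of the 44, against 4.46% of tested genes, and below 0 in none, against 4.57%. The 28 held all 17 regulatory particle genes and 9 of 14 core genes, with median differences of 0.30 and 0.21. Psmb6 (0.06) and Psmb7 (0.16) were among the core genes that did not reach it, while Psmb5 did (0.40). Differences below 0 were those of Psme1 (-0.29), Psme2 (-0.17), Psme2b (-0.44), Psmg3 (-0.05) and Psmc3ip (-0.39), and the immunoproteasome genes were below 0 too, at -0.46, -0.59 and -0.42 for Psmb8, Psmb9 and Psmb10.

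**Figure D3:**
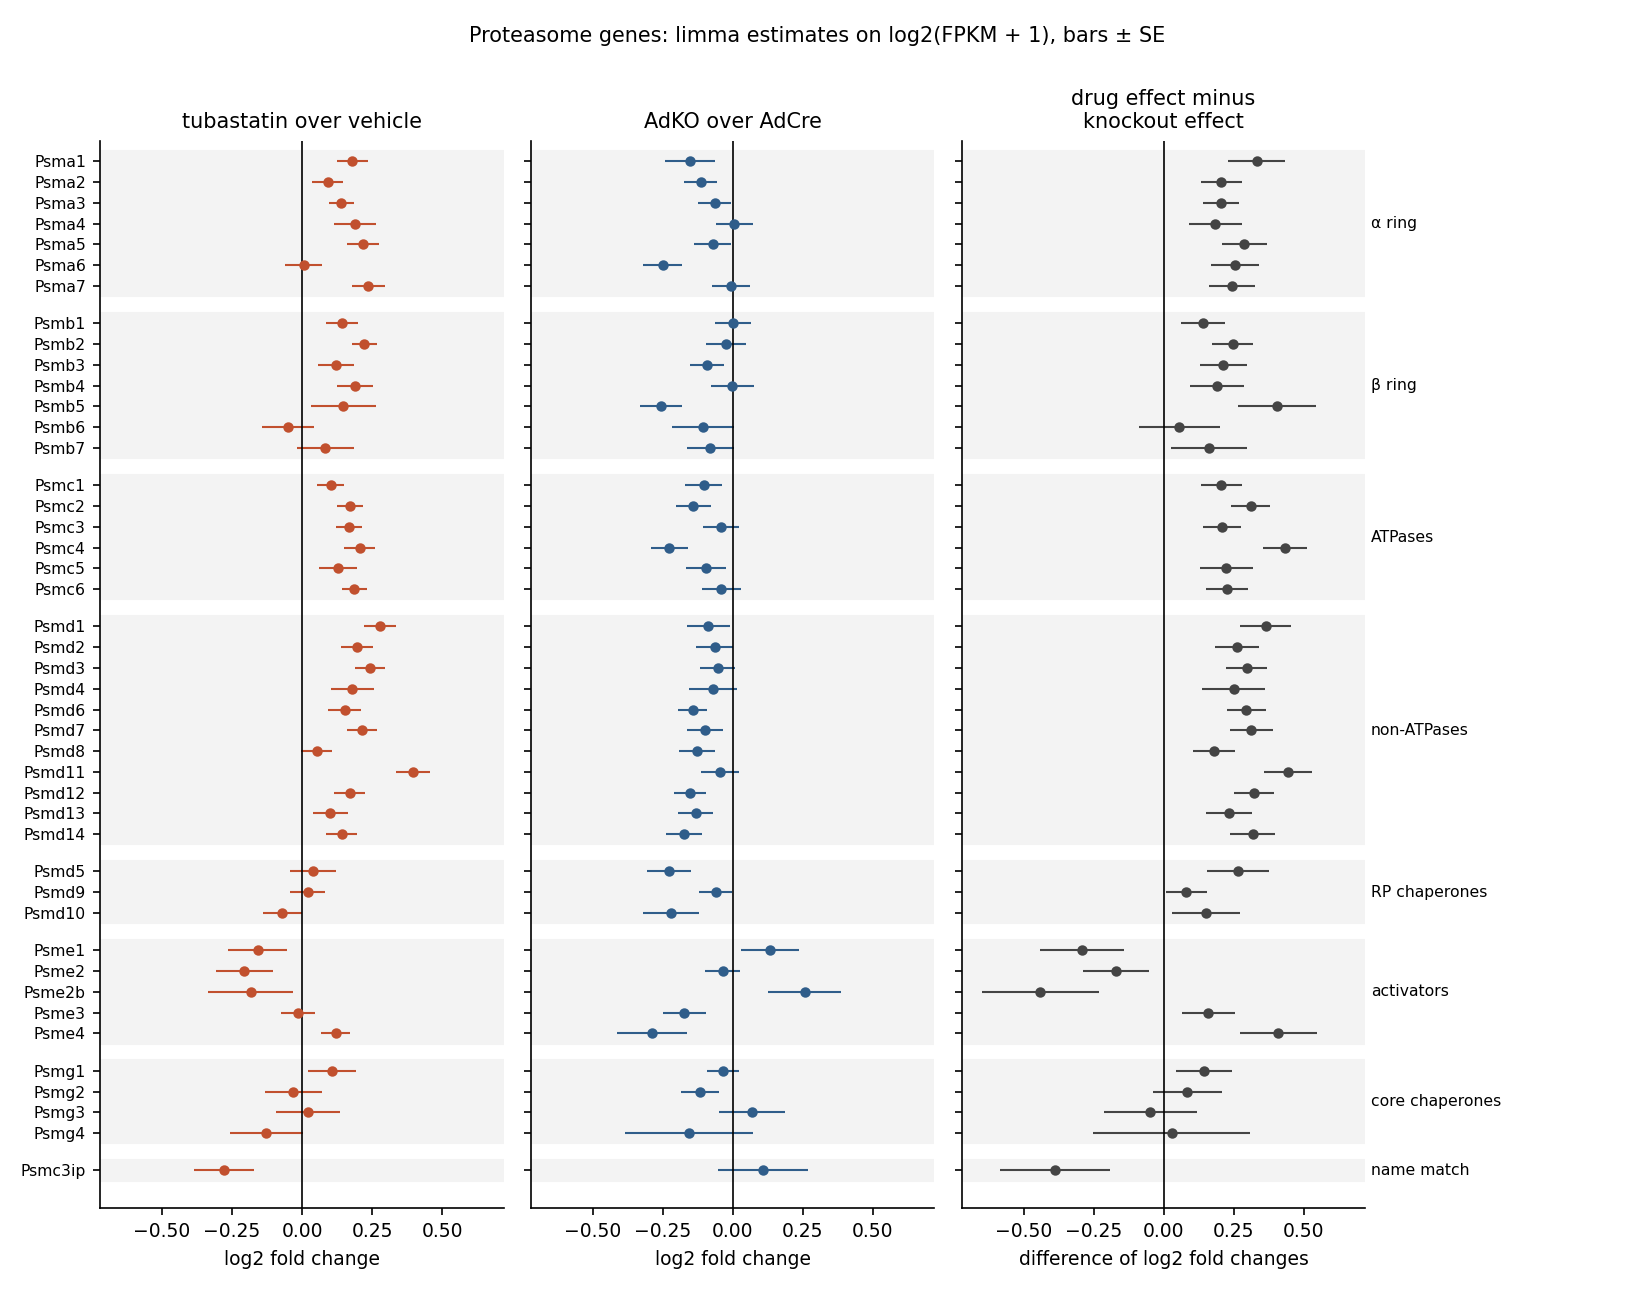
Log2 fold change of each of the 44 genes with its SE (bars), for tubastatin over vehicle, AdKO over AdCre and the difference of these effects, grouped by role from top to bottom. All 17 regulatory particle genes lie right of 0 for tubastatin and left of 0 for AdKO, and the PA28 genes Psme1 and Psme2 lie left of 0 for tubastatin.

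The levels of both particles were also compared library by library. A level was computed for each list in each library, as the mean of log2(FPKM + 1) over its genes after the 16-library mean of each gene was subtracted. The regulatory particle level was 0.08, 0.10, 0.13 and 0.14 in tubastatin libraries, against -0.12, 0.00, -0.05 and -0.10 in vehicle libraries. It was -0.10, -0.05, -0.06 and -0.09 in AdKO libraries, against 0.05, 0.03, 0.01 and 0.03 in AdCre libraries. The groups overlapped in neither cohort. Of the 17 genes, 15, 15, 17 and 17 lay above their own cohort mean in the tubastatin libraries, against 0, 4, 2 and 1 in the vehicle libraries, and 4, 6, 6 and 1 did so in the AdKO libraries, against 16, 15, 12 and 16 in the AdCre libraries. The core level was 0.02 to 0.15 in tubastatin libraries against -0.15 to 0.01 in vehicle libraries, and -0.10 to -0.004 in AdKO libraries against 0.02 to 0.09 in AdCre libraries. Within a group the particles did not always rank alike: AdKO replicate 1 had the highest core level of its group (-0.004) and the lowest regulatory particle level (-0.10). The summed FPKM of the regulatory particle was 634.3 ± 13.1 in tubastatin libraries and 564.2 ± 21.7 in vehicle libraries, and 558.9 ± 7.11 in AdKO libraries and 601.9 ± 10.7 in AdCre libraries (SD, n = 4 each). The ratio of summed core to regulatory particle FPKM was 1.01 to 1.09 in tubastatin libraries and 1.02 to 1.12 in vehicle libraries, and 1.03 to 1.13 in AdKO libraries and 1.07 to 1.10 in AdCre libraries, so it overlapped in both cohorts.

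Cell type markers were compared between the same groups, and none was called in either comparison. The 13 adipocyte markers all had log2 fold changes below 0 in both comparisons, with a median of -0.27 for tubastatin over vehicle and -0.32 for AdKO over AdCre, and none was called. Their level was -0.45 to -0.27 in tubastatin libraries and -0.36 to 0.33 in vehicle libraries, and -0.51 to 0.49 in AdKO libraries and 0.21 to 0.61 in AdCre libraries. AdKO replicates 2 and 3, at 0.42 and 0.49, lay within the AdCre range, while replicates 1 and 4 were at -0.32 and -0.51. The 11 macrophage markers were above control in 10 of 11 cases under tubastatin (median 0.19) and in all 11 in AdKO libraries (median 0.37). They summed to 4945 to 5962 FPKM in tubastatin libraries and 3654 to 5614 in vehicle libraries, and to 3117 to 6851 in AdKO libraries and 2548 to 4375 in AdCre libraries. The 4 tested neutrophil markers were all higher under tubastatin at an unadjusted p under 0.05 (median 0.93), against 5.94% of tested genes. In AdKO libraries 3 of the 4 were higher at that p (median of the 4, 1.14), against 4.78%. The lymphocyte lists changed sign between the cohorts: all 8 tested T and NK cell markers were below 0 under tubastatin (median -0.56) and above 0 in AdKO libraries (median 0.47), and all 7 tested B and plasma cell markers were below 0 under tubastatin (median -0.70) and above 0 in AdKO libraries (median 0.40). None of these lymphocyte or neutrophil markers was called in either comparison. The 6 endothelial markers had a median of -0.02 under tubastatin and -0.13 in AdKO libraries, and the 6 progenitor markers 0.07 and 0.21. In AdKO libraries 5 of 6 mesothelial markers were higher at an unadjusted p under 0.05, against 4.78% of tested genes. The 6 summed to 83.9 to 173 FPKM, against 47.6 to 90.5 in AdCre libraries. At that p 13 of 18 tested interferon response genes were higher in AdKO libraries too (median of the 18, 0.47), against 4.78% of tested genes. No gene of the mesothelial or interferon list was called. The part of these cell types in the result was not tested, and in bulk tissue fewer cells of a type and less RNA per cell cannot be told apart.

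**Figure D4:**
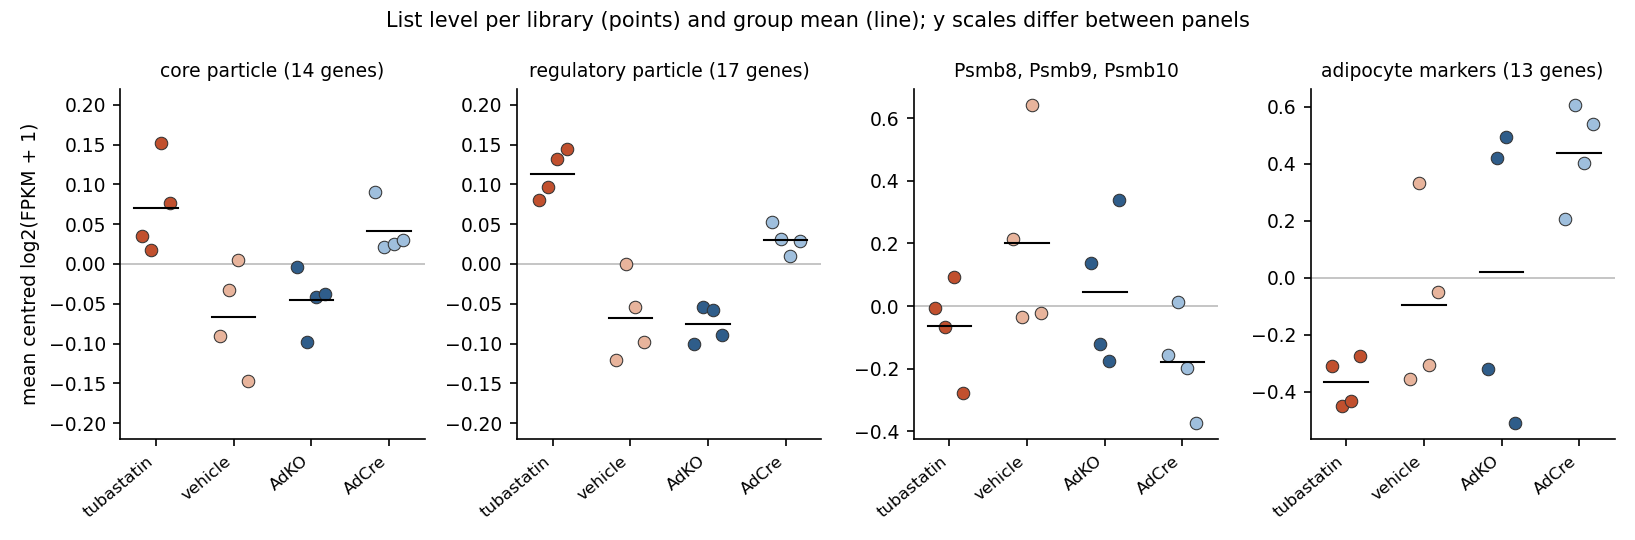
Level of 4 gene lists in each library (points) with the group mean (line), as the mean centred log2(FPKM + 1). The regulatory particle level is 0.08 to 0.14 in tubastatin libraries and -0.12 to 0.00 in vehicle libraries, and the adipocyte level is -0.45 to -0.27 in tubastatin libraries and -0.36 to 0.33 in vehicle libraries.

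Genes that work with the proteasome were described by the same counts. Of 14 tested proteasome-associated genes outside the naming rule, 0 were called in either comparison (limma). At an unadjusted p under 0.05, 4 of the 14 were higher under tubastatin, against 5.94% of tested genes. In AdKO libraries 0 were lower at that p, against 6.16%, although 13 of 14 log2 fold changes were below 0, against 49.1%. The ubiquitin receptor gene Adrm1 averaged 20.8 ± 0.53 FPKM in tubastatin libraries and 18.6 ± 1.003 in vehicle libraries, and 18.1 ± 2.26 in AdKO libraries and 20.7 ± 0.89 in AdCre libraries (SD, n = 4 each). Txnl1, a thioredoxin-like protein bound to the cap, and Akirin2, which takes proteasomes into the nucleus in human cells, had log2 fold changes of 0.17 and 0.13 under tubastatin. The core assembly factor gene Pomp was at 0.05 under tubastatin and -0.03 in AdKO libraries, and the small cap subunit gene Sem1 at 0.03 and 0.06.

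Among 13 shuttle and p97 genes, 3 were higher at an unadjusted p under 0.05 under tubastatin, against 5.94% of tested genes. They were Nsfl1c (0.17), Vcp (0.14), which encodes the p97 segregase, and Nploc4 (0.17), a cofactor of it. In AdKO libraries 2 were lower at that p, against 6.16% of tested genes: Ufd1 (-0.24), another p97 cofactor gene, and the shuttle gene Ubqln4 (-0.21). Ubqln1 came next with -0.27. The 13 transcription factor and processing genes had a median log2 fold change of 0.03 under tubastatin and 0.08 in AdKO libraries. Nfe2l1 had 70.3, 73.8, 69.97 and 79.9 FPKM in tubastatin libraries, against 79.1, 106.2, 75.2 and 90.1 in vehicle libraries, and 64.8, 116.7, 106.6 and 76.6 in AdKO libraries, against 102.8, 112.9, 110.7 and 117.3 in AdCre libraries. The groups overlapped in both cohorts. Its log2 fold change was -0.24 under tubastatin, opposite in sign to the subunit genes, and -0.32 in AdKO libraries, the same sign as theirs (limma adjusted p = 0.43 and 0.546), and cleavage of the protein was not measured. Nfe2l3, a related factor, averaged 1.97 ± 0.48 FPKM in tubastatin libraries and 0.90 ± 0.38 in vehicle libraries, and 1.51 ± 0.20 in AdKO libraries and 0.66 ± 0.10 in AdCre libraries (SD, n = 4 each), with limma adjusted p of 0.298 and 0.203.

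The control groups of the cohorts also differed. Of the 44 genes, 5 were higher in AdCre than in vehicle libraries by limma, against 4.6% of tested genes called higher and 8.85% called in either direction, and 0 were lower, against 4.26%. They were Psmg1, a core chaperone gene (log2 fold change 0.29, adjusted p = 0.0272), Psmd13 (0.25, 0.0448), Psma6 (0.26, 0.0473), Psmb2 (0.18, 0.0475) and Psme4 (0.33, 0.0479). Psmg1 had 10.5, 9.65, 10.2 and 9.83 FPKM in AdCre libraries, against 8.51, 8.06, 8.08 and 7.55 in vehicle libraries. At an unadjusted p under 0.05, 13 of the 44 were higher, against 16.8% of tested genes, and 0 lower, against 14.7%. The count of calls moved with single libraries, for the members as for all genes. It was 0 of the 44 without any one of vehicle replicates 1, 3 and 4 or AdCre replicates 2, 3 and 4, where all genes called numbered 49 to 190 against 1175 with every library. It was 8 of the 44 without vehicle replicate 2, where 2660 genes were called, and 2 without AdCre replicate 1. The log2 fold changes moved less, over 0.26 to 0.31 for Psmg1 and 0.22 to 0.29 for Psmd13. Cohort, age and labelled genotype differ together between these groups and cannot be told apart. The comparison shares its vehicle libraries with the drug comparison and its AdCre libraries with the knockout comparison. All 7 tested B and plasma cell markers were called lower in AdCre libraries. They summed to 324.3 to 1293 FPKM in AdCre libraries and 2311 to 7727 in vehicle libraries. All 8 tested T and NK cell markers had a log2 fold change below 0, and 7 of them were called. All 13 adipocyte markers had a log2 fold change above 0 in AdCre libraries (median 0.50), and 3 of them were called. Of the 4 tested neutrophil markers, 1 was called higher and 1 lower. The shuttle gene Ubqln1 was called higher too (log2 fold change 0.37, limma adjusted p = 0.0403). The part of these cell types in the result was not tested.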

How the data were processed

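The authors deposited 1 table of FPKM values for 16 libraries of total RNA, extracted with Trizol, treated with DNase and cleaned on RNeasy columns per the labels' protocols. Aligner, counting tool, build and strand setting: not given in the sources used here. Each of the 16 columns carried a sample's title. With GENCODE M21 exon lengths, 96.3 to 96.5% of values above 0 per library were whole read numbers (tolerance 0.01 read), which gave the depths. Of the 44 members, 43 were whole in all 16 libraries; Psmg2 was not.

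Genes with a mean of at least 1 FPKM (13271) entered a limma-trend fit (limma 3.58.1 in R 4.3.3) of log2(FPKM + 1), adjusted over all of them by Benjamini-Hochberg at 0.05. The fold changes given have that pseudocount in them and are understated for low genes. The fits held the 8 libraries of a comparison, or all 16 for the difference of effects. Hdac6 was tested by exact permutation over 70 relabelings (scipy 1.17.1). The fits were tested on simulated data. Alternatives were a pseudocount of 0.1, other filters, TPM, median-of-ratios factors, quantile normalization, 1 shared spread, a replicate block, each library left out, voom on the recovered reads and, chosen after seeing the data, AdCre replicates 2 and 3 left out.

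Members and gene lists were chosen with earlier results of these data known. The genes named are the called members, or the 10 members with the smallest p in each comparison, with catalytic, scaffold, activator and chaperone genes, the highest and lowest of each role, and at most 3 genes of other lists. Others named in the text were chosen after their values were seen.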

Additional observations from a re-analysis of the deposited data

Results flagged for a closer look

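A library stood apart from the other 3 of its group, by Dixon's test at the 95% level, in 10 of 184 groups examined, and chance alone flags about 1 in 20. In tubastatin libraries, Psmb5 was 91.3 FPKM in replicate 3, above 75.6 to 76.6 in the others, Psmd3 was 27.7 FPKM in replicate 2, above 26.8 to 26.9, and Psmd9 was 2.95 FPKM in replicate 2, under 3.33 to 3.40. In vehicle libraries, Psmb7 was 22.6 FPKM in replicate 2, above 17.2 to 17.9, and Psme2 was 71.7 FPKM in replicate 3, above 56.0 to 57.3. In AdKO libraries, Psmb5 was 64.4 FPKM in replicate 2, under 72.1 to 72.7, and Psmd10 was 16.2 FPKM in replicate 1, above 12.3 to 12.7. In AdCre libraries, Psmb6 was 65.1 FPKM in replicate 1, above 53.0 to 53.1, Psme4 was 11.4 FPKM in replicate 1, under 14.1 to 14.5, and the core particle level was 0.090 in replicate 1, above 0.02 to 0.03.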

How the results depend on the processing

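No direction reversed among the 10 members with the smallest p in each comparison, under any alternative run. As TPM, the median of all tested genes under tubastatin moved to 0.06, with medians of 0.22 in the core and 0.25 in the regulatory particle, and 0.21 and 0.22 after quantile normalization. As TPM, the median differences of effects were 0.28 and 0.36, and 0.06 over all tested genes. The regulatory particle median for AdCre over vehicle was then 0.15, and 21 members were higher there at an unadjusted p under 0.05. The median of all tested genes in that comparison moved too, from 0.0009 as deposited to 0.04. Shares of all tested genes at that p are not given for the alternatives, so the member counts under them stand without one. As TPM, 64.2% of the genes called between AdCre and vehicle were higher, against 51.9% as deposited. The regulatory particle median for AdKO over AdCre was -0.060 after quantile normalization, and 5 members were lower at that p, as with TPM. With 1 shared spread, all genes called were 8 under tubastatin, 1 of them a member (Psmd11), and 43 for AdKO, with 14 members lower at that p. With no filter, all genes called were 3 under tubastatin, 2 for AdKO, 58 for AdCre over vehicle (1 member) and 1 for the difference, and TPM called 1 under tubastatin. Members called for AdCre over vehicle were 3 with median-of-ratios factors or quantile normalization. Members lower under tubastatin numbered 0 with TPM or a mean of at least 5 FPKM.

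Same-numbered libraries correlated at -0.232 to 0.33. In the drug comparison none correlated best with its own number, while in the knockout comparison replicates 1 (0.33) and 3 (0.206) did. Such correlations cannot settle whether the numbers mark pairs, and the main fits used no pairing. With the replicate block, AdCre over vehicle had 537 genes and 0 members called, 2 members were lower under tubastatin and 3 below 0 in the difference. Without AdCre replicates 2 and 3, AdCre over vehicle had 79 genes and 0 members called, AdKO had 1 member higher and 2 lower, and the difference had 1 below 0. Leaving out 1 library at a time gave 0 to 2 genes called under tubastatin, 0 to 1 for AdKO, 49 to 2660 for AdCre over vehicle and 0 to 5 for the difference. Members called were 0 in all of these except AdCre over vehicle (0 to 8). Members lower at an unadjusted p under 0.05 were 0 to 2 under tubastatin, 4 to 10 for AdKO and 0 to 2 in the difference. Members higher were 15 to 23 under tubastatin, 0 to 1 for AdKO, 8 to 15 for AdCre over vehicle and 24 to 30 in the difference. The cause of these shifts was not tested.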
